A study of Mus musculus with 12 samples.

Results

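Inducible nitric oxide synthase (Nos2) and the membrane-bound core of phagocyte NADPH oxidase (Cybb, also called gp91phox or NOX2) are the oxidant-producing enzymes described here, in microglial cells given extracellular vesicles. They were followed through 2 of the 57010 rows of the deposited count tables. The row with identifier ENSMUSG00000018334 carries the label of the scaffold gene Ksr1 and is estimated to hold reads of Nos2. The row with identifier ENSMUSG00000061065 carries the label of the histone gene H2al1o and is estimated to hold reads of Cybb. Both were selected on their counts in these libraries, with earlier results known, among them their higher CPM with LPS vesicles than with control vesicles. Values of these rows from the libraries with LPS vesicles are therefore given as a description, without a p-value. The libraries with control vesicles also took part in that choice. The p-values of both rows in other comparisons with control vesicles are therefore not free of it.

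Bulk RNA sequencing was done on BV2 cells, an immortalised line of mouse microglia, after 24 h with extracellular vesicles, the membrane particles that cells release. There were 4 groups with 3 libraries each, 12 in all, told apart by which vesicles were added: control_EV (vesicles of control cells), LPS_EV (LPS, lipopolysaccharide, a bacterial ligand of the receptor Tlr4), TGFB_EV (labelled for the cytokine TGF-β) and IL10_EV (labelled for the cytokine IL-10). Every group used the same resting recipient line and received vesicles at an equal dose for the same time. Among the libraries used here, no group got an agent without vesicles or no vesicles at all, so an effect of the vesicles and one of agent carried over with them cannot be told apart.

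Nos2 makes nitric oxide from arginine and is switched on in macrophages and microglia by bacterial products and interferon, in large part through NF-κB. Cybb passes electrons from NADPH across the membrane to oxygen, giving superoxide, once cytosolic subunits such as Ncf1, Ncf4 and Rac have joined the membrane pair of Cybb and Cyba. Nitric oxide and superoxide react to form peroxynitrite, and both enzymes are part of how microglia attack microbes and, in inflamed brain, can harm neurons.

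The identity of both rows is an estimate from position. In these tables the labels and the levels of rows did not go together, and the exons of the labelled genes fitted the counts better when moved along the chromosome by a fixed distance over long stretches of rows. In stretches with a supported displacement, 6486 rows had a mean of at least 5 CPM (counts scaled to a common library total). Of these, 5464 met the exons of a protein-coding gene, and in 549 the gene met was the one of the label. Levels in CPM given further on were also scaled with TMM factors. The member rows took no part in fitting their own displacement. Ksr1 lies at chr11:79013440-79146407 on the minus strand in GRCm38 and belongs to a stretch of 2343 rows displaced by -109.2 kb. Moved by that distance, it overlapped Nos2 (chr11:78920787-78960254, plus strand) and shared 210 exonic bases with it, all of them coding. They lie in exons 5 and 17 of the 27 of a transcript of 4192 bases. Ksr1 has 25 exon blocks with 7103 bases, so most bases of the moved row lie outside the exons of Nos2. H2al1o lies at chrX:9571901-9572409 on the minus strand, in a stretch of 331 rows displaced by -133.9 kb. There it overlapped Cybb (chrX:9435252-9487771, minus strand) and shared 343 bases with exon 13, the last of 13, of which 124 are coding and the rest are 3′ UTR. At the neighbouring displacements 100 bp to either side, 58 and 173 bases were shared with Nos2, and 243 and 443 with Cybb.

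For each gene, the coding stretch of the exon that shares most coding bases with the moved row is shown. The identity of both rows rests on the displacement and not on these sequences. Capitals mark the bases that the moved row shares with the gene, and both are GENCODE M21 transcript sequence on GRCm38, 5′ to 3′. The first is exon 17 of Nos2 at chr11:78948213-78948387, with 158 bases shared, and the second the coding part of exon 13 of Cybb at chrX:9438220-9438343.

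Nos2 exon 17: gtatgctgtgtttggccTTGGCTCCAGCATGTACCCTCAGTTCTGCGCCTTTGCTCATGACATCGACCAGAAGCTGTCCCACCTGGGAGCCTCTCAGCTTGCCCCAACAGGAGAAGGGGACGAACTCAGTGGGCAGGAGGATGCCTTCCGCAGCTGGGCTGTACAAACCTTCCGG
Cybb exon 13, coding part: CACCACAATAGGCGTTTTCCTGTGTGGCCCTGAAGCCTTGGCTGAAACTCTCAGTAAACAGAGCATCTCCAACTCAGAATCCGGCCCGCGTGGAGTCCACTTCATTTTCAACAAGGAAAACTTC

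Both runs encode the reductase part of their enzyme, the part that binds flavin or NADPH and feeds electrons to the haem. Each row covers only part of its gene, and reads on its bases outside the exons of that gene would be counted too. The levels of the 2 rows are therefore not compared with each other. The kits used do not mark strand, so transcripts from the opposite strand of these exons would be counted with them.

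**Figure D1:**
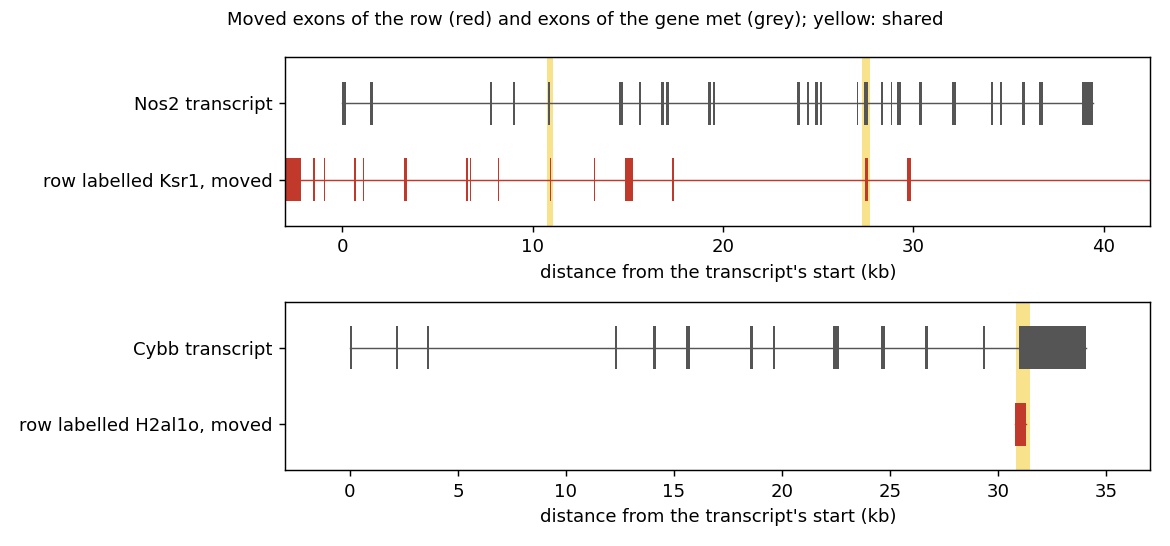
Exons of the Nos2 and Cybb transcripts (grey) and of the moved rows labelled Ksr1 and H2al1o (red), by distance from the start of each transcript in kb, with shared stretches in yellow (drawn wider than the bases shared). The moved Ksr1 exons touch Nos2 in exons 5 and 17, and the single exon of H2al1o overlaps the beginning of exon 13 of Cybb.

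Both rows varied together across the libraries, as described further on, and why they did was not tested. The promoter of Cybb is shown as background. It was taken from RefSeq on GRCm38.p6 (chrX:9469275-9469574, minus strand), from 250 bases before the start of transcription to 50 after it. Nos2 had no entry in the promoter table used. Motifs were searched on both strands: the NF-κB consensus site, the STAT site TTCNNNGAA, the PU.1 core GAGGAA, the AP-1-like pattern TGANTCA and the octamer-like ATGCAAAA. N stands for any base. Capitals mark the 2 matches found.

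Cybb promoter: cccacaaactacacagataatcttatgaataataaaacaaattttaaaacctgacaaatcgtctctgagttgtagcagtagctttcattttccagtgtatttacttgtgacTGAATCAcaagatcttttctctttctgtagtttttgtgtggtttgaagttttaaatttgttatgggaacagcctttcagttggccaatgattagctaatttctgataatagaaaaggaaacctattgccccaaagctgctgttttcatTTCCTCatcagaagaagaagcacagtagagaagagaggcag

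The first match is to the AP-1-like pattern, with A as its middle base, beginning at base -139 from the start. The pattern reads the same on both strands, so the match has no strand. Of 32851 promoters of the same length, 7.81% hold that pattern. The second is a PU.1 core on the opposite strand, at base 9, and 28.3% of promoters hold one. The other motifs had no match in this window. They were held by 0.155% of promoters (the fixed κB sequence), 8.3% (STAT) and 1.04% (octamer-like). Whether the window holds another form of the κB site was not tested. A match is a run of letters and not evidence that a factor was bound.

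The Nos2 row held between 59 and 719 counts per library. In control_EV its level was 11.9, 21.2 and 9.98 CPM in replicates 1 to 3, and in LPS_EV it was 22.1, 30.0 and 31.7 CPM. In TGFB_EV it was 9.38, 5.08 and 20.8 CPM, and in IL10_EV 10.9, 55.6 and 9.71 CPM. All 3 LPS_EV libraries were above all control_EV libraries, though the lowest of the first and the highest of the second were close. TGFB_EV and IL10_EV each held 2 low libraries and 1 high one, and the highest level of all 12 libraries was in IL10_EV replicate 2.

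Group means of the Nos2 row were 27.9 ± 5.09 CPM in LPS_EV, 25.4 ± 26.1 in IL10_EV, 14.4 ± 6.0 in control_EV and 11.8 ± 8.12 in TGFB_EV (SD, n = 3). The libraries of each neighbouring pair in this order overlapped. The mean of IL10_EV rested on replicate 2, which was 5.39 times the mean of the other libraries of that group, 10.3 CPM. In TGFB_EV replicate 3 was 2.88 times the mean of the others, 7.23 CPM.

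The Cybb row held between 642 and 2838 counts per library. In control_EV its level was 81.2, 108 and 85.1 CPM, and in LPS_EV 123, 156 and 159 CPM. In TGFB_EV it was 68.5, 55.3 and 102 CPM, and in IL10_EV 87.5, 219 and 87.3 CPM. Again all LPS_EV libraries were above all control_EV libraries, IL10_EV replicate 2 was the highest and TGFB_EV replicate 2 the lowest of the 12.

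Group means of the Cybb row were 146 ± 20.2 CPM in LPS_EV, 131 ± 76.3 in IL10_EV, 91.5 ± 14.6 in control_EV and 75.4 ± 24.3 in TGFB_EV (SD, n = 3). They stood in the same order as those of the Nos2 row, and here too each neighbouring pair overlapped. Replicate 2 of IL10_EV was 2.51 times the mean of the other libraries of its group, 87.4 CPM, and replicate 3 of TGFB_EV 1.66 times that of its own, 61.9 CPM. In bulk RNA, a change in the number of cells with a transcript and a change in the amount per cell cannot be told apart.

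**Figure D2:**
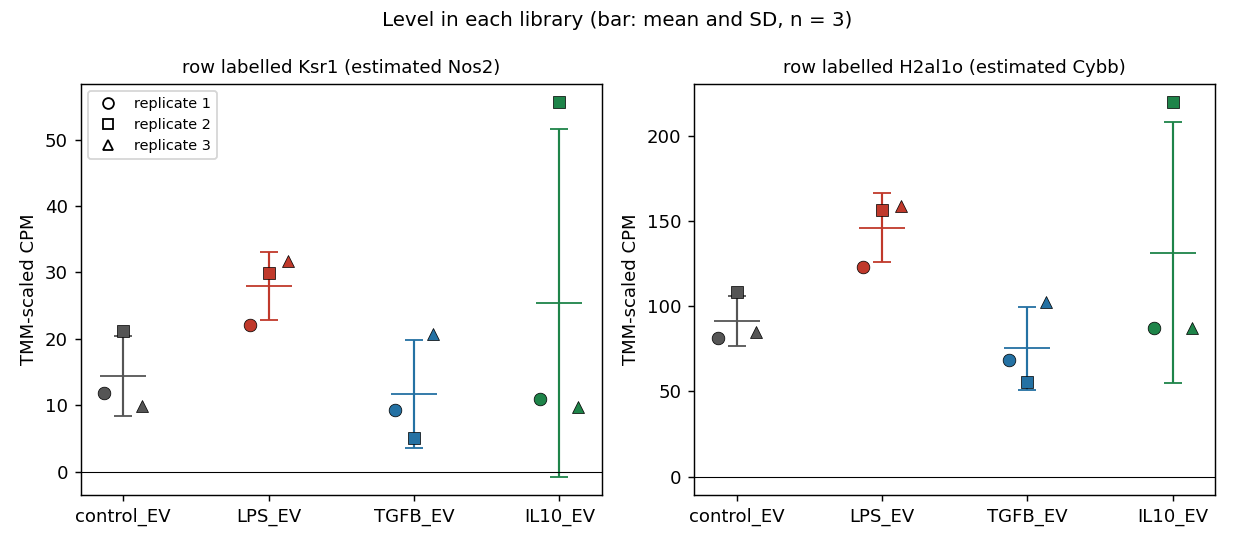
Level of the Nos2 row (left) and of the Cybb row (right) in each library (points, shaped by replicate, TMM-scaled CPM) by vesicle group, with the group mean and SD (horizontal line and whiskers, n = 3). The LPS_EV points lie above the control_EV points in both rows, and IL10_EV replicate 2 stands above every other library, at 55.6 CPM in the Nos2 row and 219 CPM in the Cybb row.

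With LPS vesicles, the Nos2 row was 1.945-fold and the Cybb row 1.596-fold higher than with control vesicles (log2 difference 0.96, SE 0.19, and 0.67, SE 0.09). With all 12 libraries in 1 fit the differences were as large but their SEs were 0.54 and 0.28. Over the whole table, 86 of 10523 rows passed an adjusted p of 0.05 in edgeR in this comparison, 0.817% of those tested, 57 of them higher in LPS_EV (0.542%), and 0 passed with all 12 libraries in 1 fit. All 3 LPS_EV libraries lay above all 3 control_EV libraries in 8.04% of rows tested. Because this comparison was used to choose the rows, no call is given for them and nothing is read from these shares. When each library was left out in turn, the log2 difference stayed between 0.75 and 1.36 for the Nos2 row and between 0.60 and 0.81 for the Cybb row.

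With TGF-β vesicles neither row was past the threshold. The Nos2 row was lower than in control_EV by a log2 difference of -0.28 (SE 0.38, edgeR adjusted p = 0.91) and the Cybb row by -0.28 (SE 0.17, edgeR adjusted p = 0.82). Of 10524 rows tested 4 passed, 0.038%, all of them lower in TGFB_EV, and 6.23% had an unadjusted p under 0.05. Single libraries moved these values. The difference of the Nos2 row was 0.11 without control_EV replicate 2 and 0.08 without TGFB_EV replicate 2, and that of the Cybb row was -0.10 without the latter. Without TGFB_EV replicate 3, the log2 difference of the Cybb row was -0.57 (SE 0.11, edgeR adjusted p = 0.00624), past the threshold. That of the Nos2 row was -0.99 (edgeR adjusted p = 0.0565). Replicate 3 was the highest of its group in both rows, and the control_EV libraries took part in choosing the rows. Nothing is therefore read from that call. In the fit without TGFB_EV replicate 3, 312 of 10768 rows passed as lower, 2.9%, against 107 higher, 0.994%.

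With IL-10 vesicles the log2 difference from control_EV was 0.82 (SE 0.56) for the Nos2 row and 0.52 (SE 0.29) for the Cybb row, with an edgeR adjusted p of 0.9996 for each. Of 10613 rows tested, 0 passed in edgeR (0%), 334 had an unadjusted p under 0.05, and 1 passed in DESeq2. Without IL10_EV replicate 2 the differences were -0.48 and -0.069, so the sign of both rested on that library.

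**Figure D3:**
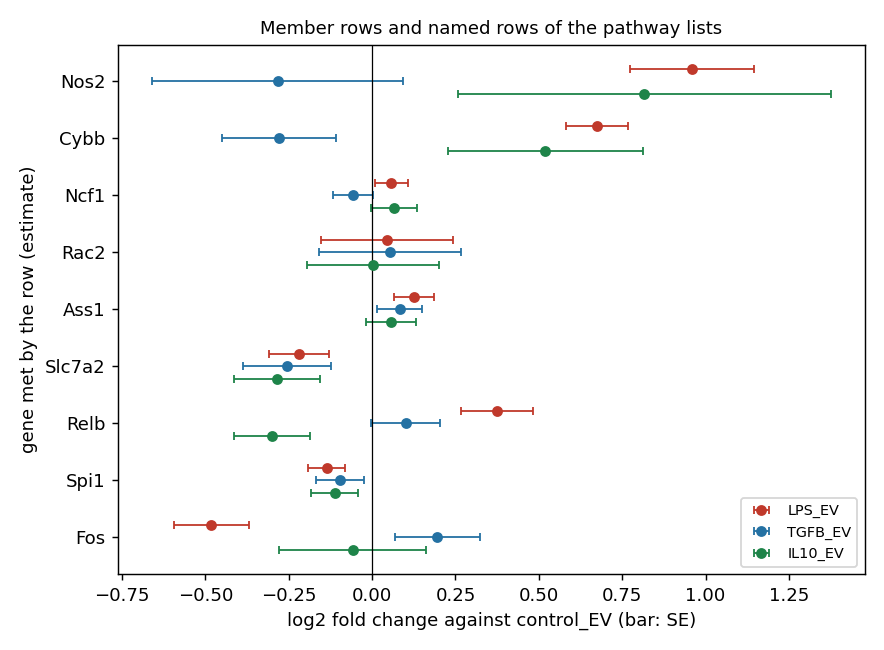
Log2 difference from control_EV in edgeR, with its SE, of the member rows and of the 7 rows from the lists, by gene met, for LPS_EV, TGFB_EV and IL10_EV (3 against 3 libraries each). The LPS_EV differences of the Nos2 and Cybb rows, 0.96 and 0.67, are a description without a test, their IL10_EV differences have wide errors, and the Fos row lies below 0 in LPS_EV, at -0.48.

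Between treatments, the Nos2 row was lower in TGFB_EV than in IL10_EV by a log2 difference of -1.10 (SE 0.54, edgeR adjusted p = 0.673). The Cybb row was lower by -0.80 (SE 0.28, edgeR adjusted p = 0.623). In this fit of all 12 libraries, 0 of 11267 rows passed in edgeR (0%), 842 had an unadjusted p under 0.05 and 15 passed in DESeq2. Without IL10_EV replicate 2 the Nos2 row differed by 0.19 in the other direction, and the Cybb row by -0.21. The LPS_EV libraries exceeded those of TGFB_EV by a log2 difference of 1.24 (SE 0.54) in the Nos2 row and 0.95 (SE 0.28) in the Cybb row, and those of IL10_EV by 0.14 (SE 0.51) and 0.15 (SE 0.27). The last values were 1.43 and 0.73 without IL10_EV replicate 2, -0.22 and -0.070 without replicate 1, and -0.25 and -0.072 without replicate 3. The 3 comparisons with control_EV use the same control libraries and are not independent of one another.

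The 2 rows moved together from library to library. In 12 of 12 libraries both deviated to the same side of their group mean, and 9 of 12 libraries held the same rank in both. From the highest, the first 4 places went to IL10_EV replicate 2 and the 3 LPS_EV libraries, followed by control_EV replicate 2 and TGFB_EV replicate 3, and the last 2 were TGFB_EV replicates 1 and 2. The range was wider for Nos2, where the highest library was 10.9 times the lowest, than for Cybb, where it was 3.97 times. These are rows of the same libraries, and the shared pattern is a description. Deviations within a group cancel out, so the 12 agreements are not independent of one another. Both rows were chosen as higher in LPS_EV than in control_EV, which bears on the shared ranks. How many other pairs of rows do the same was not counted.

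**Figure D4:**
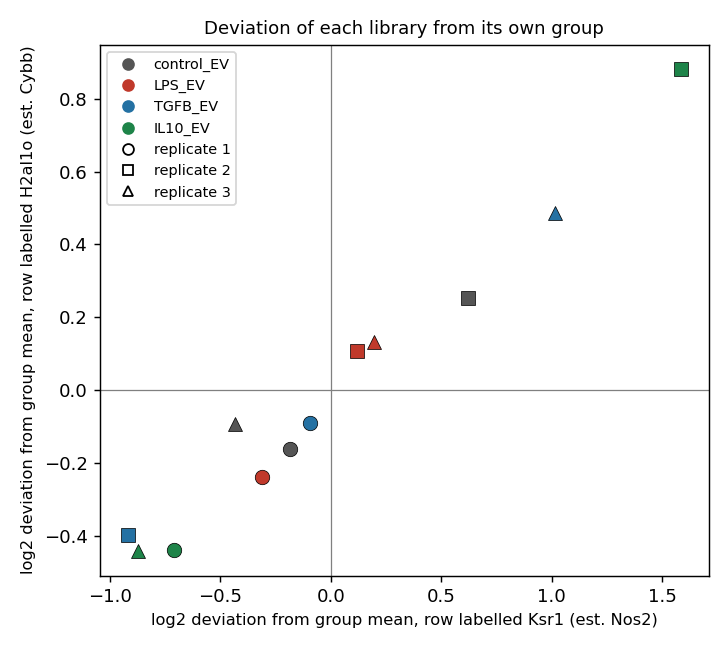
Deviation of each library from the mean of its group, in log2(CPM + 0.5), in the Nos2 row (horizontal) and the Cybb row (vertical), coloured by vesicle group and shaped by replicate. All 12 libraries lie in the lower left or upper right quadrant, with IL10_EV replicate 2 farthest out, at 1.58 and 0.88.

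The coefficient of variation of the Nos2 row was 18.2% in LPS_EV, 41.8% in control_EV, 69.1% in TGFB_EV and 103% in IL10_EV, beside a counting error of 5.73% to 10.01%. For the Cybb row it was 13.8%, 16.0%, 32.3% and 58.0%, beside a counting error of 2.49% to 3.47%. Pooled over the groups, the within-group SD of log2(CPM + 0.5) was 0.895 for the Nos2 row and 0.469 for the Cybb row, beside a median of 0.138 over the 7499 rows with a mean of at least 5 CPM. Only 2 of these rows varied more than the Nos2 row, and 53 more than the Cybb row. The first 2 are the row labelled Slc26a10, which met Avil, and the row labelled Tpm2, named after their values were seen. Without IL10_EV replicate 2 the SDs were 0.615 and 0.290, with 11 and 388 rows more variable.

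**Figure D5:**
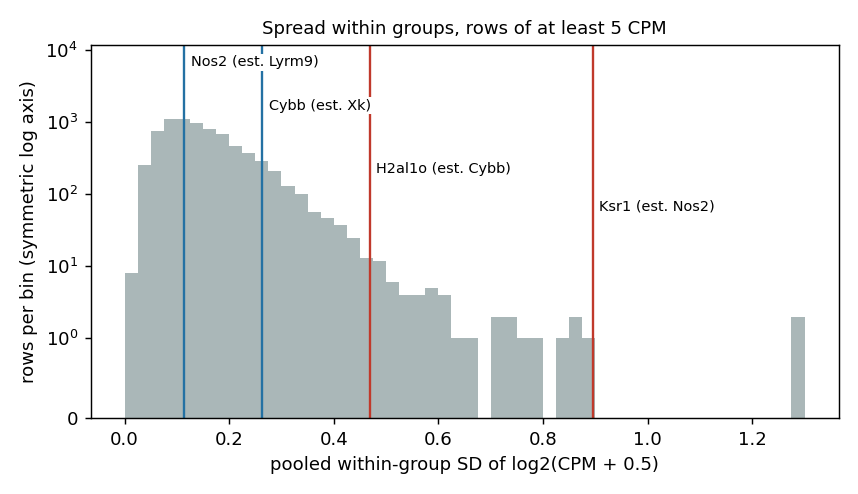
Number of rows (symmetric logarithmic axis) by pooled within-group SD of log2(CPM + 0.5), for the 7499 rows with a mean of at least 5 CPM in 12 libraries. Lines mark the Nos2 row at 0.895 and the Cybb row at 0.469, in the upper tail, and the rows carrying the labels Nos2 and Cybb at 0.114 and 0.264.

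The rows that carry the labels Nos2 and Cybb gave another picture. The row labelled Nos2 met Lyrm9, a neighbouring gene for a mitochondrial protein family, and its group means lay between 24.5 ± 2.17 CPM in control_EV and 25.9 ± 2.06 in TGFB_EV (SD, n = 3). Its log2 difference in LPS_EV was 0.06 (SE 0.11, edgeR adjusted p = 0.888). The row labelled Cybb met Xk, the gene beside Cybb that encodes a membrane protein of the Kell blood group complex. It stood at 15.3 ± 1.33 CPM in control_EV, 13.0 ± 1.98 in IL10_EV, 12.2 ± 3.06 in LPS_EV and 12.1 ± 2.89 in TGFB_EV (SD, n = 3), and its log2 difference in LPS_EV was -0.33 (SE 0.16, edgeR adjusted p = 0.444). In IL10_EV replicate 2, where both member rows were highest, the row labelled Nos2 was 0.928 times and the row labelled Cybb 0.828 times the mean of the other libraries of that group. Departures in that library were not confined to the member rows, as given further on with the Fos row.

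Other genes within 500 kb did not pass either. Near Nos2, 3 rows met Nf1, which encodes a Ras GTPase-activating protein, and 1 met Tmem199, and with the rows of Lyrm9 and Xk their log2 differences in LPS_EV ranged from -0.33 to 0.23. The smallest edgeR adjusted p among these 6 rows in the LPS_EV comparison was 0.354.

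The other parts of the oxidase were covered thinly. Of 8 further genes of the NADPH oxidase complex, 2 had a measured row, and neither passed in any comparison with control_EV. The row labelled Gtf2ird2 met Ncf1, the cytosolic organiser p47phox, and also the exons of 2 other coding genes. It held 477 ± 15.7 CPM in control_EV, 496 ± 8.98 in LPS_EV, 499.6 ± 38.4 in IL10_EV and 459 ± 25.4 in TGFB_EV (SD, n = 3), a log2 difference of 0.06 in LPS_EV (SE 0.05, edgeR adjusted p = 0.74). The row labelled 1700041B01Rik met Rac2, the small GTPase of the complex, at group means from 7.04 to 7.31 CPM. The median log2 difference of the list was 0.05 in LPS_EV, beside 0.00 over all rows. Cyba and Ncf4 had no measured row by position. Among 9 genes of other NADPH oxidases 2 were measured and 0 passed in edgeR in the comparisons with control_EV. The row labelled Gm14085 met Duox1 and 1 other coding gene, at a mean of 3.28 CPM over the 12 libraries. The row labelled Slc28a2 met Duox2, at 104 CPM. Both were named after their values were seen, and whether their reads came from these genes was not tested.

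Around nitric oxide, 8 of 19 genes of arginine supply, cofactor synthesis and the other synthases were measured, and 0 passed in edgeR in any of the 3 comparisons with control_EV. Their median log2 differences were -0.01 in LPS_EV, -0.01 in TGFB_EV and -0.04 in IL10_EV. The row labelled Fubp3 met Ass1, which remakes arginine from citrulline, and stood at 152 ± 7.33 CPM in control_EV and 166 ± 8.47 in LPS_EV (log2 difference 0.13, SE 0.06, edgeR adjusted p = 0.45). The row labelled Zdhhc2 met Slc7a2, an arginine transporter, and 1 other coding gene. It held 183 ± 19.2 CPM in control_EV and 157 ± 29.1 in LPS_EV, against 154 ± 38.6 in TGFB_EV and 150.3 ± 30.5 in IL10_EV, with a log2 difference of -0.22 in LPS_EV (SE 0.09, edgeR adjusted p = 0.339). Arg1 and Gch1 had no measured row by position. Of 22 genes of oxidant removal 6 were measured and 0 passed in edgeR in these comparisons. Their median log2 difference was 0.19 in LPS_EV, 0.02 in TGFB_EV and 0.09 in IL10_EV, beside 0.00 over all rows in each, with 5, 4 and 4 of the 6 above 0. Counted by label, the median in LPS_EV was -0.07, with 4 of 9 above 0. Sod2 and Hmox1 had no measured row by position.

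Of 16 regulators of the 2 genes 9 were measured, and 1 passed in 1 comparison. That was the row labelled Gm40477, which met Fos, a subunit of AP-1. It was 41.6, 36.9 and 43.8 CPM in control_EV and 34.7, 24.9 and 27.9 CPM in LPS_EV, without overlap. It fell by a log2 difference of -0.48 with LPS vesicles (SE 0.11, edgeR adjusted p = 0.0341), a direction in which 0.276% of all rows passed and 8.19% did not overlap. The call was lost without control_EV replicate 1 or 3 or LPS_EV replicate 2 or 3, with log2 differences from -0.47 to -0.38 and edgeR adjusted p from 0.102 to 0.223. It was also lost with all 12 libraries in 1 fit (-0.48, SE 0.22, edgeR adjusted p = 0.733). In IL10_EV it was 46.2, 22.7 and 48.6 CPM, lowest in replicate 2, the library in which the Nos2 and Cybb rows were highest. That library also stood apart in other rows, named after their values were seen. In IL10_EV the Duox2 row was 99.8, 135.3 and 100.8 CPM, and the row labelled Slc26a10 was 17.0, 1.47 and 32.5 CPM. The Ass1 row, at 148.9, 162.0 and 164.1 CPM, did not show this. How many rows did was not counted, and a link between the Fos row and the members was not tested.

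The row labelled Ceacam19 met Relb, an NF-κB subunit. It was 34.3 ± 4.08 CPM in LPS_EV, 28.5 ± 0.649 in TGFB_EV, 26.5 ± 1.45 in control_EV and 21.5 ± 1.64 in IL10_EV (SD, n = 3), with a log2 difference of 0.38 in LPS_EV (SE 0.11, edgeR adjusted p = 0.113). The row labelled 1110051M20Rik met Spi1, which encodes PU.1, and 1 other coding gene. Its log2 difference in LPS_EV was -0.14 (SE 0.06, edgeR adjusted p = 0.338). Irf1 had no measured row by position. The median of the regulators was 0.08 in LPS_EV and -0.06 in both TGFB_EV and IL10_EV. Counted by their labels instead, all 5 lists had 0 rows past the threshold in edgeR in each comparison with control_EV.

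Rows with the most similar pattern were those with the smallest root-mean-square (RMS) difference in centred log2(CPM + 0.5) over the 12 libraries, among 7498 others. For the Nos2 row the nearest was the row labelled Cgn, which met no coding gene (0.29), followed by the row labelled Gm34589 (0.31). The latter met Acod1, which makes itaconate in activated macrophages, and went from 115 CPM in control_EV to 219 in LPS_EV, with 339 CPM in IL10_EV replicate 2 and 57.8 in TGFB_EV replicate 2. The Cybb row was the third (0.39), then came a row without a position, ENSMUSG00000118573 (0.41), and the row labelled Psmd4, which met Selenbp1 (0.42). The median over all rows was 0.911.

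For the Cybb row, ENSMUSG00000118573 was the nearest, with an RMS difference of only 0.087, at group means of 100.1 CPM in LPS_EV, 85.2 in IL10_EV, 62.3 in control_EV and 54.0 in TGFB_EV. Whether its reads also come from Cybb was not tested. The rows labelled Gm2245 (0.16) and Fyb (0.17), the row ENSMUSG00000119943 (0.20) and the row labelled Slc6a5, which met Nav2 (0.21), followed. The median over all rows was 0.555, and the Nos2 row was in place 301 from this side, since its swings are wider.

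The libraries were of like depth, with totals from 10497757 to 13647007 counts, and 3 counts amounted to 0.220 to 0.286 CPM. Nothing in the labels says that replicates came from separate cultures, and each p-value therefore speaks of the spread among these libraries alone, possibly a technical one. By position, 6 of 14 microglial markers had a row. Csf1r stood at 380 CPM, Spi1 at 359, Ptprc at 172, Trem2 at 53.4 and Aif1 at 15.1, and Itgam was near 0 at 0.575. Their summed level was 851 to 1055 CPM in TGFB_EV, 933 to 1080 in IL10_EV, 977.5 to 1021 in LPS_EV and 978 to 1064 in control_EV. Few markers of other cells had a row. These were Map2, 1 of 5 of neurons (0.0133 CPM), Mag, 1 of 4 of oligodendrocytes (0.029), and Pecam1, 1 of 4 of endothelium (0.613). Of 4 astrocyte markers 0 had one, so other cell types were hardly covered.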

How the data were processed

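Recipient BV2 cells of 12 libraries were profiled by RNA-seq. Per the labels' protocols, cDNA was made with SMART-Seq v4 and libraries with Nextera XT. The values are raw read counts for each Ensembl gene identifier, deposited by the authors in tables that each pair a treatment with the same control columns. A pair of tables was identical, so 3 were used. DESeq2 was used per the submitters' processing notes. Not given in the sources used here: aligner, counting program, genome build and annotation. Groups and replicate numbers come from the sample titles. Replicate numbers were not treated as pairs.

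The counts entered edgeR 4.0.16 under R 4.3.3 with TMM scaling. Low rows were dropped by filterByExpr (minimum count 10), the quasi-likelihood test was applied, and p was adjusted over all rows by Benjamini-Hochberg with a threshold of 0.05. Comparisons with control_EV were fitted on 6 libraries, and pairs of treatments on all 12. Levels are TMM-scaled CPM, except in placing the rows, where no TMM factors were used. A pseudocount of 0.5 CPM was used for log2 levels.

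The tables hold 57010 rows, of which 52029 matched a symbol and 50445 a position in GENCODE M21 (GRCm38), a build that may differ from that of the files. Exons were moved in steps of 100 bp, each change of displacement costing a score of 15, and levels below 0.1, up to 5 and from 5 CPM were scored against the exons met. Group labels were not used, and both member rows were left out of the fit. The search reached 1000 kb either way, and on X 1900 kb below and 500 kb above. Of 132 stretches, 79 were supported by a margin of 10 over displacements more than 100 steps away, holding 83.5% of positioned rows. A gene was met where at least 100 exonic bases were shared, and a row that met several was given the one with most. Its identity is an estimate.

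The members, lists, motifs and tests were chosen with earlier results of these data known. Named rows were the members, the rows labelled Nos2 and Cybb, a fixed set of list genes (Cyba, Ncf1, Ncf4, Rac2, Arg1, Ass1, Slc7a2, Gch1, Sod2, Hmox1, Irf1, Relb and Spi1) at a mean of at least 5 CPM, list genes past the threshold, and the 5 most alike rows of each member. Results of some list genes are not reported here. Alternatives were DESeq2 1.42.0, its size factors in edgeR, no filter, a filter of 1 CPM in 3 libraries, another set of libraries in the fit, a replicate block, sums over rows meeting the same gene, and each library left out. Reads carry no molecular identifiers, so counting errors cover counting only.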

Additional observations from a re-analysis of the deposited data

Results flagged for a closer look

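The row labelled Ceacam19, which met the NF-κB subunit Relb, lay above the control_EV mean in all LPS_EV libraries (mean log2 difference 0.37) and in all TGFB_EV libraries (0.10), and below it in all IL10_EV libraries (-0.30). In the fit of all 12 libraries LPS_EV exceeded IL10_EV by a log2 difference of 0.67 (SE 0.11, edgeR adjusted p = 0.0944) and TGFB_EV exceeded IL10_EV by 0.40 (SE 0.11, edgeR adjusted p = 0.597). Neither passed the threshold. Without each library in turn, the LPS_EV difference from control_EV stayed between 0.27 and 0.44 and the IL10_EV difference between -0.35 and -0.24.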

How the results depend on the processing

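The LPS_EV differences of both rows from control_EV kept their direction under all 13 alternatives, between 0.96 and 0.996 (Nos2) and 0.67 and 0.68 (Cybb) outside the fits that leave out a library. Their SEs, 0.19 and 0.09, were 0.36 and 0.17 in DESeq2 and 0.54 and 0.28 with all 12 libraries in 1 fit. The direction was part of how the rows were chosen. The number of rows passing was less stable. It was 86 in LPS_EV, 123 with DESeq2, 165 without the filter on low counts and 0 in edgeR with all 12 libraries in 1 fit, and 18 to 127 with a library left out (53 without control_EV replicate 1, 27 without LPS_EV replicate 2, 18 without replicate 3). For TGFB_EV it was 4, 20 with DESeq2, 111 without the filter, 0 in edgeR with all 12 libraries, and 0 to 419 with a library left out, the highest without TGFB_EV replicate 3. For IL10_EV it was 0 in edgeR, 1 with DESeq2, 22 without the filter, and 0 to 2 with a library left out. For TGFB_EV against IL10_EV it was 0 in edgeR, 15 with DESeq2, 160 without the filter, and 0 to 1 with a library left out.

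Without the filter both rows passed in IL10_EV (0.81, edgeR adjusted p = 0.000346, and 0.52, 0.000188), where 22 of 22317 rows passed. Both also passed in TGFB_EV against IL10_EV (-1.10, edgeR adjusted p = 2.38e-10, and -0.80, 1.18e-15), where 160 of 24860 rows passed. The differences were close to those of the main fits, but the SEs were 0.15 and 0.09 in each comparison. In the main fits they were 0.56 and 0.29 in IL10_EV, and 0.54 and 0.28 in TGFB_EV against IL10_EV. The cause was not tested. With a library left out, the TGFB_EV difference from control_EV ranged from -0.99 to 0.11 (Nos2, 0.11 without control_EV replicate 2 and 0.08 without TGFB_EV replicate 2) and from -0.57 to -0.10 (Cybb). The IL10_EV difference ranged from -0.48 to 1.21 and from -0.069 to 0.74, with both lowest values without IL10_EV replicate 2. TGFB_EV against IL10_EV ranged from -1.80 to 0.19 and from -1.08 to -0.21. LPS_EV against IL10_EV ranged from -0.25 to 1.43 (-0.22 without IL10_EV replicate 1, -0.25 without 3) and from -0.072 to 0.73 (-0.070 and -0.072 without the same libraries). Fits that leave 1 group with 2 libraries pool the spread.

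Whether replicate numbers pair the libraries was not settled. Correlations of the deviations of same-numbered libraries with control_EV lay between 0.023 and 0.103 for LPS_EV and between -0.251 and -0.037 for TGFB_EV. For IL10_EV they lay between -0.013 and 0.259. In LPS_EV, TGFB_EV and IL10_EV, 5, 0 and 4 of 6 libraries correlated best with their own number. Between TGFB_EV and IL10_EV the correlations were 0.108, -0.401 and -0.443 for replicates 1 to 3, and 0 of 6 libraries correlated best with their own number. In TGFB_EV against IL10_EV 0 rows passed with or without a replicate block. With the block 209 rows passed in LPS_EV (86 in the main fit), 3 in TGFB_EV (4) and 3 in IL10_EV (0). The Nos2 and Cybb rows then differed by 0.996 and 0.68 in LPS_EV, -0.38 and -0.31 in TGFB_EV, 0.51 and 0.40 in IL10_EV, and -0.83 and -0.71 in TGFB_EV against IL10_EV.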
